A study of Mus musculus with 4 samples.

Results

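Prostaglandins and leukotrienes are short-lived lipid messengers made from arachidonic acid, and 10 genes of their synthesis were examined in cultured mouse myoblasts with and without Tet2. The genes were chosen by name, with earlier results of these data known, as Ptgs1, Ptgs2, Ptges, Ptgis, Ptgds, Hpgds, Alox5, Alox5ap, Alox15 and Lta4h. Each name matched exactly 1 of the 24445 genes of the expression table. Bulk RNA sequencing had been performed on 4 libraries of primary myoblasts from C57BL/6 mice, 2 WT and 2 Tet2 KO, and the labels do not say whether the libraries of a group came from separate animals. Per the study's methods the knockout was made by deleting exon 3 of Tet2 through homologous recombination, with no Cre that would limit it to muscle cells, and young adult males were used unless stated otherwise. Muscle stem cells of the hindlimb were sorted as cells lacking CD45, CD11b, CD31 and Sca1 and carrying CD34 and integrin alpha 7, and were grown on collagen for at least 3 days in a proliferation medium, without a differentiation step. The question behind the experiment was how loss of this DNA demethylating enzyme alters the transcripts of muscle precursors.

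In both branches of this pathway a phospholipase A2 first frees arachidonic acid from membranes. Cyclooxygenases then turn it into prostaglandin H2, from which terminal synthases make prostaglandins E2 and D2, prostacyclin and thromboxane. In the other branch 5-lipoxygenase, helped by its membrane partner FLAP, makes leukotriene A4, which a hydrolase converts to leukotriene B4, an attractant of neutrophils. In skeletal muscle, prostaglandins are known to act on muscle stem cells and on myoblast fusion, while the leukotriene branch is best known from myeloid cells.

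For each gene the table gave 1 FPKM for WT and 1 for Tet2 KO, a count of sequenced fragments scaled to transcript length and library size. The value was read as combining the libraries of its group. Values of single libraries were not used here, so no spread, n or test stands beside any value, and a difference between the groups has no replicate check. The depth behind each value is unknown. Differences are given as plain ratios of the FPKM values and as log2((Tet2 KO FPKM + 1) / (WT FPKM + 1)), named the log2 difference, in which the added 1 understates differences of genes with low values. A gene was called higher or lower when this value reached 2-fold (a log2 difference of 1) and its mean FPKM over both groups was at least 1. FPKM is scaled by transcript length, so levels of different genes are compared on this scale.

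Of the 10 genes, 8 reached the mean of 1 FPKM. Ptgs2 and Alox5ap were called higher in Tet2 KO and none was called lower, that is 2 and 0 of 8. Across all 11692 genes at that level, 2.08% were called higher and 1.21% lower. The 6 remaining genes lay within 2-fold, among them Alox5, the 1 gene of the set that was lower in Tet2 KO. Ptgds was below 1 FPKM in both groups, and Alox15 was listed at 0 in both. Hpgds reached the level only through its value in Tet2 KO. The median log2 difference of the 8 genes was 0.36, against -0.0044 for all 11692 genes. Over all 10 genes it was 0.27. At 1.5-fold the calls were again 2 higher and 0 lower, with 3.72% of all genes higher and 2.89% lower. At 3-fold they were 0 and 0, with 0.693% and 0.214% of all genes.

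**Figure D1:**
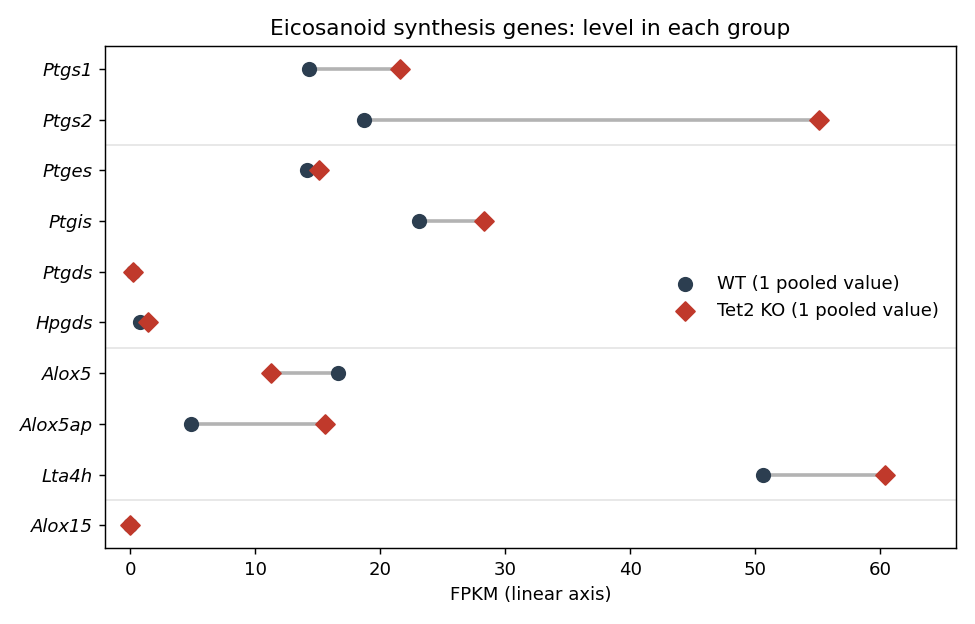
FPKM of each of the 10 synthesis genes on a linear axis, with 1 value for WT (circle) and 1 for Tet2 KO (diamond) joined by a line. The lines separate cyclooxygenases, prostanoid synthases, leukotriene genes and Alox15. Ptgs2 (18.7 to 55.1 FPKM) and Alox5ap (4.84 to 15.6 FPKM) are farthest apart relative to their level, and Alox5 is the 1 gene with the Tet2 KO value to the left.

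To show what lies at the starts of these genes, promoter sequences from RefSeq (build GRCm38.p6) were read for the 7 members held in that table, all except Ptgis, Alox5ap and Alox15. All 7 windows matched mm9 exactly once, and in all 7 the RefSeq start was the start of the gene in the deposited table. The GENCODE vM1 annotation of mm9 has the same start for Ptgs1, Alox5 and Lta4h. It starts Ptgs2 later (151947254) and starts Hpgds (65094902), Ptgds (25325566) and Ptges (30785383) earlier on their strand. Distances below are from the RefSeq start, and the searched words found in Hpgds, Ptges and Ptgds lie within their GENCODE genes. The pair of cyclooxygenase genes is shown because their differences were unequal, Hpgds because it shares a searched word with Ptgs1, and Alox5 because it was the gene with the lower value in Tet2 KO. Each line gives the 120 bases before the start on the gene's strand, with the searched word in capitals.
Ptgs2, chr1:150099911-150100030, plus strand, capitals TTGCGCAA (C/EBP): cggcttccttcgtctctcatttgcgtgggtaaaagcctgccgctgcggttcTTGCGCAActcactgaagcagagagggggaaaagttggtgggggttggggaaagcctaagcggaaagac
Ptgs1, chr2:36230306-36230425, plus strand, capitals GAGGAAGT (PU.1): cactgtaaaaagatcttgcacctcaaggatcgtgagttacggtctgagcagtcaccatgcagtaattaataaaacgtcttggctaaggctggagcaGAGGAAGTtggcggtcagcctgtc
Hpgds, chr6:65144731-65144850, minus strand, capitals GAGGAAGT (PU.1): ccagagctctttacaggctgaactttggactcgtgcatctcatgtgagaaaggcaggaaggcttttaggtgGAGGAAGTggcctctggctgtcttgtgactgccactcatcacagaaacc
Alox5, chr6:116461179-116461298, minus strand, capitals GGGCGG (GC box): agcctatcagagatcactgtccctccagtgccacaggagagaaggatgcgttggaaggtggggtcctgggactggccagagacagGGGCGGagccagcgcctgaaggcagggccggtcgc

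Words were searched on both strands from 250 bases before to 50 bases after the start. The Ptgs2 window held TTGCGCAA, a palindrome bound by C/EBP factors, beginning 69 bases before the start; 0.183% of 32851 RefSeq promoters held this word. Just after the RefSeq start it held ACGTCA, the core of a cyclic AMP response element, and CACGTG, an E-box, overlapping by 2 bases. GENCODE vM1 starts Ptgs2 later, at 151947254 in mm9, past the window's end at 151947210, so both words lie before that start.
Ptgs2, chr1:150100038-150100061, plus strand, capitals ACGTCA and CACGTG joined: ccactACGTCACGTGgagtccgct
ACGTCA occurred in 7.51% and CACGTG in 7.15% of all promoters. The word GAGGAAGT, bound by the myeloid factor PU.1, began 24 bases before the start of Ptgs1 and 49 bases before that of Hpgds, and 3.20% of promoters held it. GGGCGG was found in Ptgs2, Ptges and Alox5 and in 35.7% of all promoters. CAGCTG, the E-box that MyoD favours, was present among the 7 windows only in that of Ptgds, at 2 places, and in 16.3% of all promoters. TATAAA was found in 0 of the 7 windows and in 13.6% of promoters. Since the study concerns DNA methylation, CpG sites were counted as well. Ptgs2 and Lta4h had 16 in their windows of 300 bases, Ptges 10, Alox5 7, Ptgs1 6, Hpgds 5 and Ptgds 2, against a median of 7 and quartiles of 3 and 20 over all promoters. Neither methylation nor binding was measured in the RNA data used here, and a word in a window is a description of its letters. The paper also reports methylation and ATAC sequencing of WT and Tet2 KO myoblasts, which were not used here.

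Ptgs2 encodes the inducible cyclooxygenase COX-2, an early response gene of inflammation. It lies on the plus strand of chromosome 1 from 151947161 to 151955364 in mm9, with 10 exons in GENCODE vM1. Ptgs2 had 18.7 FPKM in WT and 55.1 FPKM in Tet2 KO. This is a plain ratio of 2.94 and a log2 difference of 1.51, which placed it 100th from the top among 11692 genes. Of the 10 genes it had the largest difference in FPKM, 36.4. Its level went from the third highest of the set in WT to the second highest in Tet2 KO.

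Ptgs1 encodes COX-1, the cyclooxygenase that many cells make at all times. It lies on the plus strand of chromosome 2 from 36085946 to 36107791 and has 11 exons. Ptgs1 had 14.3 FPKM in WT and 21.6 FPKM in Tet2 KO, a plain ratio of 1.51 and a log2 difference of 0.56. It was not called and lay 463rd from the top. The transcripts of both cyclooxygenases were thus present in both groups, and Ptgs2 was the higher of the pair in each. The level of Ptgs2 was 1.31 times that of Ptgs1 in WT and 2.56 times that of Ptgs1 in Tet2 KO. The FPKM of the pair added up to 33.0 in WT and 76.7 in Tet2 KO, with Ptgs2 making up 56.7% and 71.9% of the sum.

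The 4 terminal synthases of the set had smaller log2 differences between the groups than Ptgs2. Ptgis encodes prostacyclin synthase and lies on the minus strand of chromosome 2 from 167028696 to 167066037. It had 23.1 FPKM in WT and 28.3 FPKM in Tet2 KO, a log2 difference of 0.28. Ptges encodes the inducible prostaglandin E synthase, which often works together with COX-2. It lies on the minus strand of chromosome 2 from 30744991 to 30758817 and had 14.1 FPKM in WT and 15.1 FPKM in Tet2 KO. Its log2 difference was 0.09, the smallest of the 8 genes. The level of Ptgs2 was 1.32 times that of Ptges in WT and 3.65 times in Tet2 KO.

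Both prostaglandin D synthases were low. Hpgds, the haematopoietic form known from mast cells, some lymphocytes and macrophages, lies on chromosome 6 from 65067287 to 65094724. It had 0.793 FPKM in WT and 1.44 FPKM in Tet2 KO, a plain ratio of 1.82 and a log2 difference of 0.45. Gm17147 is annotated on the opposite strand within its locus, and the library kit does not mark strand, so reads of the pair cannot be told apart there. Ptgds, the lipocalin form of brain and testis, lies on chromosome 2 from 25322232 to 25325269 and had 0.172 FPKM in WT and 0.209 FPKM in Tet2 KO. Over these 4 synthase genes, Ptgis made up 60.5% of the summed FPKM in WT and 62.8% in Tet2 KO, Ptges 37.0% and 33.5%, Hpgds 2.07% and 3.20%, and Ptgds 0.451% and 0.463%. The order of the 4 levels was the same in both groups.

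In the leukotriene branch, the enzyme and its partner had differences of opposite sign. Alox5ap encodes FLAP, the membrane protein that presents arachidonic acid to 5-lipoxygenase. It lies on the plus strand of chromosome 5 from 150076580 to 150099729 and has 5 exons in its longest coding transcript, of 852 bases. Alox5ap had 4.84 FPKM in WT and 15.6 FPKM in Tet2 KO. The plain ratio of 3.21 was the largest of the set, and the log2 difference of 1.5 placed it 103rd from the top. A 5S ribosomal RNA copy, n-R5s180, is annotated on the opposite strand within its locus.

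Alox5 encodes 5-lipoxygenase itself. It lies on the minus strand of chromosome 6 from 116360089 to 116411196 and has 14 exons. Alox5 had 16.6 FPKM in WT and 11.2 FPKM in Tet2 KO, so that WT was 1.48 times Tet2 KO. Its log2 difference of -0.53 was within 2-fold and was the 382nd from the bottom of 11692. In WT the level of Alox5 was 3.43 times that of Alox5ap, and in Tet2 KO it was 0.721 times, so the order of the pair differed between the groups.

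Lta4h encodes leukotriene A4 hydrolase, which also has an aminopeptidase activity and is made by many cell types. It lies on the plus strand of chromosome 10 from 92916141 to 92947641 and has 19 exons. Lta4h had the highest level of the set in both groups, 50.6 FPKM in WT and 60.3 FPKM in Tet2 KO, a log2 difference of 0.25. Alox15 encodes the 12/15-lipoxygenase of resident macrophages and eosinophils, which contributes to lipoxins and other mediators. It lies on chromosome 11 from 70157649 to 70165533, was listed at 0 in both groups, and has no ratio.

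**Figure D2:**
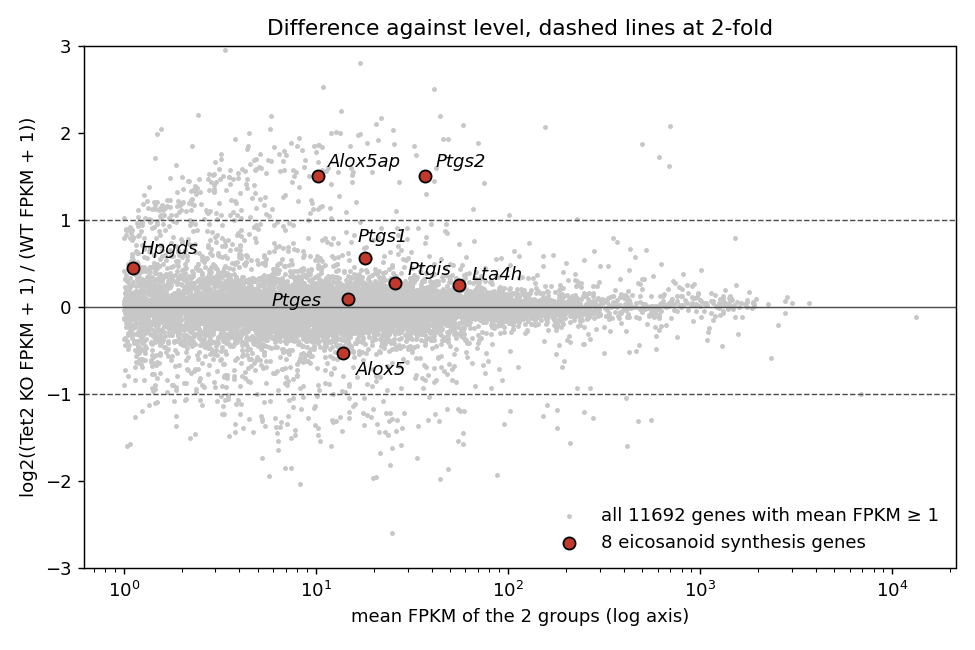
Log2 difference (Tet2 KO over WT, 1 FPKM added) against the mean FPKM of the 2 groups on a log axis, for the 11692 genes with a mean of at least 1 (grey) and the 8 synthesis genes among them (red). Dashed lines mark 2-fold, and 11 genes lie beyond the plotted range of 3 log2 units. Alox5ap and Ptgs2 lie above the upper line at 1.5 and 1.51, and the other 6 genes lie between the lines.

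The background depends on the level. Among the 4803 genes with a mean of 1 to 10 FPKM, 3.69% were called higher, whereas among the 5954 genes from 10 to 100 FPKM, where Ptgs2 and Alox5ap lie, 0.974% were. Alox5ap is in this band only through its value in Tet2 KO, since its WT value of 4.84 FPKM falls in the lower band. In this higher band the middle 50% of genes had log2 differences from -0.09 to 0.08. Ptgs1, Ptgis, Lta4h and Ptges lay above that range, and Alox5 lay below it.

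The other genes of the pathway were described from a list of 62 genes for release of the fatty acid, further synthases, other lipoxygenases, inactivation and transport, and receptors. Of these, 28 reached a mean of 1 FPKM. Called higher were 4 of the 28 and called lower 0, beside the 2.08% and 1.21% of all genes, and the median log2 difference of the 28 was 0.08. All 4 had means of 1 to 10 FPKM, where 3.69% of all genes were called higher. Tbxas1, Ltb4r1 and Fpr2 among them reached the mean of 1 FPKM only through Tet2 KO. Among the 16 with a mean of at least 5 FPKM, 0 were called higher. With 5 FPKM added in place of 1, 0 of the 28 were called higher.

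Among 21 genes of phospholipases A2 and annexin A1, 8 reached the level. Pla2g7 encodes the secreted phospholipase that breaks down platelet-activating factor, and it had 1.89 FPKM in WT and 6.17 FPKM in Tet2 KO, a log2 difference of 1.31. The most abundant was Anxa1, a protein that restrains phospholipase A2, with 816 FPKM in WT and 914 FPKM in Tet2 KO. Pla2g4a, named after its values were seen, encodes the cytosolic phospholipase A2 that frees arachidonic acid. It had 3.89 FPKM in WT and 8.60 FPKM in Tet2 KO. Its plain ratio was 2.21, and its log2 difference of 0.97 was just inside 2-fold.

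All 9 further synthase genes reached the level. Tbxas1, thromboxane synthase, known from platelets and macrophages, had 0.707 FPKM in WT and 3.36 FPKM in Tet2 KO and was called higher at 1.35. The 8 others were within 2-fold, from -0.34 for Fam213b up. The most abundant, Ptges3, a co-chaperone also described as a prostaglandin E synthase, had 284 FPKM in WT and 278 FPKM in Tet2 KO. That is 20.1 times the level of Ptges in WT and 18.4 times in Tet2 KO. Ltc4s, which makes leukotriene C4 from the same intermediate as Lta4h, had 2.56 FPKM in WT and 1.92 FPKM in Tet2 KO.

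All 5 other lipoxygenases stayed below 1 FPKM, the highest value being 0.0625 FPKM for Alox8 in WT. Of 12 genes for inactivation and transport, 6 reached the level and all 6 lay within 2-fold. The most abundant, Ptgr1, a reductase that inactivates prostaglandins and leukotriene B4, had 109 FPKM in WT and 113 FPKM in Tet2 KO. Hpgd, which begins the breakdown of prostaglandins, was low in both groups, at 0.150 and 0.106 FPKM.

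Of 15 receptor genes, 5 reached the level and 2 of them were called higher. Ltb4r1, the high-affinity receptor for leukotriene B4, had 0.593 FPKM in WT and 2.75 FPKM in Tet2 KO, a log2 difference of 1.24. Fpr2, a receptor for lipoxin and formyl peptides on phagocytes, had 0.583 and 3.45 FPKM, a log2 difference of 1.49. Both reached the mean of 1 FPKM only through Tet2 KO, as did Tbxas1. The most abundant receptor gene was that of the prostaglandin E2 receptor EP4, Ptger4, with 5.38 FPKM in WT and 5.03 FPKM in Tet2 KO. Ptgir, the prostacyclin receptor, had 2.65 and 3.65 FPKM.

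**Figure D3:**
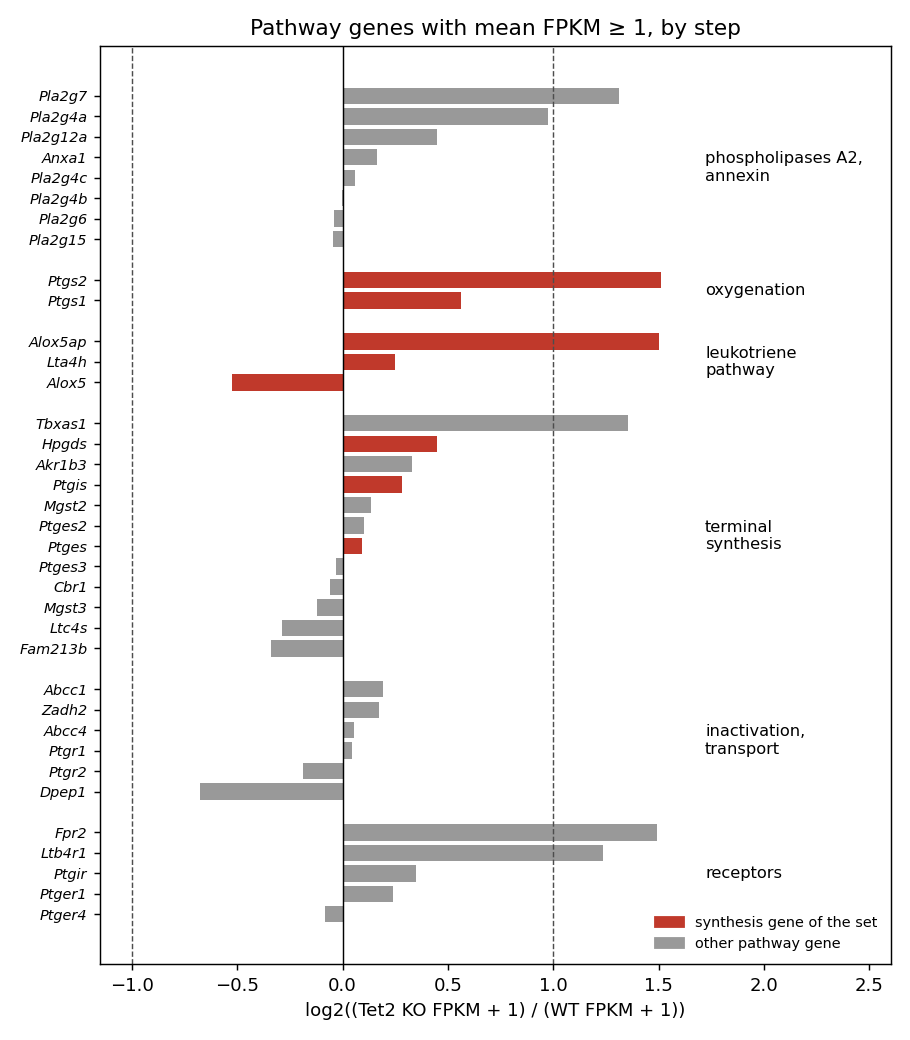
Log2 difference (Tet2 KO over WT, 1 FPKM added) of the 36 pathway genes with a mean of at least 1 FPKM, grouped by step. Red bars are the 8 synthesis genes of the set and grey bars the 28 other genes, and dashed lines mark 2-fold. Bars that pass the upper line belong to Pla2g7, Ptgs2, Alox5ap, Tbxas1, Fpr2 and Ltb4r1.

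Because several of these genes are also made by leukocytes, markers of cell types were set beside them. Myoblast markers were present at high levels in both groups. Myod1 had 336 FPKM in WT and 313 FPKM in Tet2 KO, Des had 449 and 372 FPKM, and all 6 myoblast markers were lower in Tet2 KO by at most 0.27 on the log2 scale. All 10 myeloid markers were higher in Tet2 KO, with log2 differences from 0.94 to 2.07 and a median of 1.58. Of the 10, 8 were called higher. Across all 11692 genes, 48.8% had a log2 difference above 0 and 2.08% were called higher. Adgre1 (0.712 FPKM in WT and 3.67 FPKM in Tet2 KO) reached the mean of 1 FPKM only through Tet2 KO. The summed level of the 10 myeloid markers was 95.1 FPKM in WT and 375 FPKM in Tet2 KO, and none was at 0. The genes of the antigens used to deplete leukocytes in the sort were among them. Ptprc (CD45) had 1.36 FPKM in WT and 5.67 FPKM in Tet2 KO, and Itgam (CD11b) had 2.09 and 10.1 FPKM. Lyz2 was the most abundant, with 59.5 and 253 FPKM.

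All 8 neutrophil markers were higher in Tet2 KO, 7 of them called higher and 1 with a mean below 1 FPKM. The sum of the 8 was 560 FPKM in WT and 1983 FPKM in Tet2 KO. Most of it was S100a8, with 285 and 941 FPKM, and S100a9, with 213 and 781 FPKM. The log2 differences of Ptgs2 (1.51) and Alox5ap (1.5) lay within the span of the myeloid markers. Those of Ptgs1, Ptges, Ptgis, Hpgds, Alox5 and Lta4h lay below that span. Ptgs2 and Alox5ap lay below all 7 neutrophil markers with a mean of at least 1 FPKM, which ran from 1.60 to 2.50. In bulk RNA, more cells of a type and more RNA per cell cannot be told apart. The part of these cells in the values of the synthesis genes was not tested.

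Of other possible sources of eicosanoid enzymes, mast cell, eosinophil, lymphocyte and endothelial markers were low, and platelet and megakaryocyte markers were uneven. All 7 mast cell markers were below 1 FPKM in both groups, including Kit (0.161 FPKM in WT and 0.179 FPKM in Tet2 KO) and Tpsb2 (0.760 and 0.283 FPKM). Of 3 eosinophil markers the highest value was 0.169 FPKM, for Prg2, and of 4 lymphocyte markers it was 0.175 FPKM, for Cd79a. Among platelet and megakaryocyte markers, Pf4 had 6.18 FPKM in WT and 27.6 FPKM in Tet2 KO, Ppbp had 0.318 and 1.22 FPKM, and Itga2b and Gp9 were at or below 0.374 FPKM in both groups. The 6 endothelial markers added up to 4.0 FPKM in WT and 3.57 FPKM in Tet2 KO, with Pecam1 at 1.63 and 1.48 FPKM. All 6 fibroblast markers were higher in Tet2 KO but within 2-fold on the log2 scale with 1 FPKM added. Their sum was 160 FPKM in WT and 186 FPKM in Tet2 KO, most of it Col3a1 at 152 and 171 FPKM. Without the added 1, the plain ratio was 2.23 for Dcn (3.15 and 7.04 FPKM). It was 2.29 for Lum, which was below 1 FPKM in both groups.

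**Figure D4:**
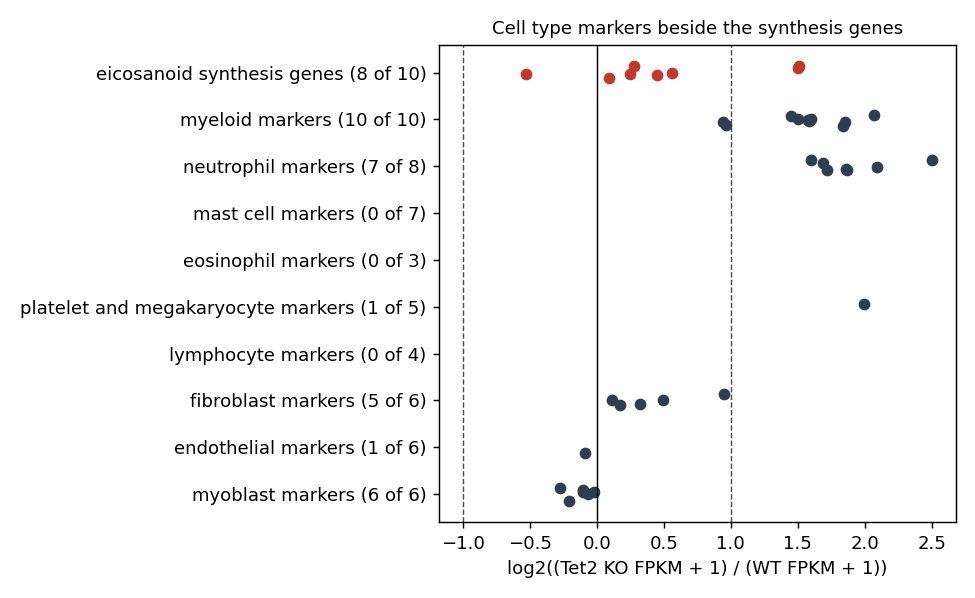
Log2 difference (Tet2 KO over WT, 1 FPKM added) of single genes, each point 1 gene with a mean of at least 1 FPKM, with dashed lines at 2-fold and the number of genes shown out of the number in the list. The 8 synthesis genes (red) spread from -0.53 to 1.51, the myeloid markers lie from 0.94 to 2.07, and the myoblast markers lie just below 0.

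The targeted gene itself was checked. Tet2 had 6.64 FPKM in WT and 5.79 FPKM in Tet2 KO. These are values of the whole gene, with no separate value for the deleted exon, and are therefore no check of the labels.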

How the data were processed

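The deposited table held 1 FPKM value per gene and group, made by the authors from paired reads that were trimmed, aligned to mm9 with TopHat2 2.0.13 and quantified with Cuffdiff 2.2.1 (versions per the submitters' processing notes). The gene annotation is not given in the sources used here. The study's methods describe Cuffdiff on pairs of KO and WT samples and not how libraries were combined; from the group labels, each value was read as combining its group's libraries. The table also held the authors' own comparison (fold changes, test statistics, p-values, q-values, status and significance), which was not used. From the FPKM values, log2 differences with a pseudocount of 1 and a minimum mean of 1 FPKM were computed and called at 2-fold, with no test.

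The 10 genes, the lists of 62 pathway genes and of markers, the promoter words and the rule for named genes were chosen with earlier results of these data known. All 10 genes were named. Of each other list the most abundant gene was named, of pathway genes also those called, and Ptprc, Itgam, Pecam1, Myod1, Kit and Tet2. Pla2g4a, Dpep1, Ltc4s, Fam213b, Hpgd, Ptgir, Ppbp, Itga2b, Gp9, Dcn, Lum, S100a9 and Adgre1 fall outside this rule. They were chosen after their values were seen. An older marker symbol was matched through RefSeq synonyms (Adgre1), and Siglec5 was not, since 2 genes carry it. Positions are those of the deposited table plus 1 at the start. Exons and overlaps came from GENCODE vM1 (mm9). The calls were checked on values with differences put in without noise, and the word search on short made-up strings. This checks the code alone. Alternatives were other pseudocounts, filters and folds, TPM and median centring. Python 3.11.15, numpy 2.4.6, pandas 2.3.3 and matplotlib 3.10.9 were used.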

Additional observations from a re-analysis of the deposited data

How the results depend on the processing

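No paired analysis was possible because each gene has 1 FPKM for WT and 1 for Tet2 KO. Fits without 1 of the libraries were not run for that reason, and the alternatives below say nothing of how far libraries differ. Each log2 difference of the 8 synthesis genes kept its sign and its side of 2-fold under a pseudocount of 0.1 or 5 or none (the last added after seeing the data), a mean of at least 5 FPKM, no filter, TPM and median centring, except that Hpgds did not reach a mean of 5 FPKM. Ptgs2 ranged from 1.34 to 1.56, Alox5ap from 1.06 to 1.68, Alox5 from -0.57 to -0.41 and the median of the set from 0.24 to 0.44. TPM and centring moved the median of all genes by at most 0.0044, while TPM moved Hpgds from 0.45 to 0.57 and Alox5ap from 1.5 to 1.58.

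Counts moved with the fold and the pseudocount by construction. At 3-fold, 0 synthesis genes were called higher, with 81 of all genes higher, 25 lower and 0 other pathway genes higher. At 1.5-fold all genes gave 435 higher and 338 lower, and 1 other pathway gene, Dpep1, was lower. A pseudocount of 5 gave 77 higher, 64 lower and 0 other pathway genes higher, a mean of at least 5 FPKM 109 higher and 0 other pathway genes higher, a pseudocount of 0.1 215 lower, and no pseudocount 224 lower. Pla2g4a was called higher with a pseudocount of 0.1, with none, under TPM and at 1.5-fold.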

Other observations

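Pla2g4a and Ptgs2, which act at consecutive steps of prostaglandin synthesis, lie on chromosome 1, 139 kilobases apart and on opposite strands. Whether other genes lie between them was not checked. Both had the higher value in Tet2 KO (log2 differences of 0.97 and 1.51). In the inactivation list the gene farthest from 0 was Dpep1, named after its values were seen, which encodes a dipeptidase that converts leukotriene D4 to E4. It had 5.89 FPKM in WT and 3.31 FPKM in Tet2 KO, a log2 difference of -0.68.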
